A study of Mus musculus with 29 samples.

Results

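Claudins are the membrane proteins that set how tightly neighbouring epithelial cells are sealed, and 8 of them (Cldn1, Cldn2, Cldn3, Cldn4, Cldn7, Cldn8, Cldn15 and Cldn23) were followed here with occludin (Ocln) and the scaffold protein Tjp1 (ZO-1) in mouse colon. These 10 genes were chosen by name as the claudins and junction proteins of intestinal epithelium, with earlier results of these data known. Each was found by its Ensembl identifier among the 54532 genes of the count matrix. All of them had enough counts to be tested. Ocln was lower in every mouse of all 6 colitis models than in the model's own controls, at 1.41 to 2.58-fold. It had an edgeR adjusted p below 0.05 in 5 of them. Cldn4 was higher in every mouse of 5 models and passed this threshold in 4, though several of these calls were lost on leaving out a single mouse. In a single model, 32.5% to 58.0% of all genes had no overlap between model and control mice. The share of genes doing so over several models together is not given. The other members differed from model to model, and Tjp1 moved least.

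Tight junctions form a belt near the apical end of epithelial cells, where claudins of neighbouring cells pair across the gap between them and either close it or leave selective pores. Cldn1, Cldn3, Cldn4, Cldn7 and Cldn8 are regarded as sealing claudins, Cldn2 forms a pore for cations and water, and Cldn15 a pore for sodium that is prominent in small intestine. Occludin stabilises the strands that claudins form, and Tjp1 ties these strands to the actin cytoskeleton. In inflamed bowel a leaky epithelium with altered claudin composition is a long-known feature.

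The colons came from 29 mice, in 6 models of colitis and 3 control groups, and their poly(A) RNA was sequenced. Untreated Balb/C mice labelled wild type (WT controls, n = 3) served DSS, DNBS and IL10. The DSS mice (Balb/C, n = 3) drank 3% dextran sulfate sodium for 5 days and were culled at day 10, and the DNBS mice (Balb/C, n = 3) were given 3 mg dinitrobenzene sulfonic acid into the rectum in 200 µl of 50% ethanol. For the IL10 group (Balb/C, n = 4) the labels name an antibody that blocks IL10, with 750 µg of antibody to its receptor and culling at week 4, while the study's methods describe Il10-/- animals. Untreated C57BL/6 Rag1-/- mice (labelled Rag1 controls, n = 3) served TCT and aCD40. TCT mice (C57BL/6 Rag1-/-, n = 3; Rag2-/- in the protocol text) received naive CD4 T cells and were culled after 6 to 8 weeks, and aCD40 mice (C57BL/6 Rag1-/-, n = 3) received 50 µg of an agonist antibody to CD40 and were culled after 7 days. Untreated Balb/C Rag2-/- mice (Rag2 controls, n = 3) served TRUC, which are untreated Balb/C mice lacking both Tbx21 and Rag2 (n = 4). The strain and culling times of DSS and TCT are given as labelled. For DSS the study's methods name C57BL/6 mice, and for both DSS and TCT they give earlier culling than the labels. Rag-deficient mice have no T or B cells of their own, so 4 of the groups show colitis or health without them, and TCT mice have only transferred T cells. An age is stated for the TCT recipients alone, 8 to 10 weeks at transfer in the methods. The stretch of colon is not stated for these libraries, and the distal region is named only for a separate microarray experiment.

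Total counts per mouse ran from 10725564 to 14977094, and levels are given as CPM, the count of a gene scaled to a common library total with TMM factors. Several libraries went against their labels. RNA of H2-Ea-ps, which Balb/C mice make and C57BL/6 mice lack, was at 67.7 to 317 CPM in the labelled Rag1 controls, aCD40, Rag2 controls and TRUC, and at most 0.104 CPM in the WT controls, DSS, DNBS, IL10 and TCT. By this transcript the WT controls, DSS, DNBS and IL10 mice did not match Balb/C, nor the labelled Rag1 controls and aCD40 mice C57BL/6. TCT had Rag1 RNA at 1.85 to 2.88 CPM and none of Rag2, whereas the labelled Rag1 controls had Rag1 RNA at no more than 0.294 CPM, and which part of either gene was deleted is not stated. TCT and the labelled Rag1 controls thus differed in H2-Ea-ps RNA, so strain background and colitis cannot be told apart between them. The members are therefore also compared between TCT and the WT controls, which by label differ in Rag genotype, and between aCD40 and the Rag2 controls. Tbx21 RNA in TRUC was at 2.12 to 4.62 CPM, and Il10 RNA in IL10 at 5.23 to 11.5 CPM against 0.0762 to 0.266 CPM in WT controls. IL10 mice 3 and 4 also stood apart. Hoxd13, a gene of the hind end of the gut, was at 7.89 and 0.313 CPM in them against 117 to 413 CPM in the other 27 mice, so the comparisons of IL10 by edgeR are also given without them. Of those 27, the DSS mice were at 177, 191 and 117 CPM of Hoxd13, all below the WT controls at 273, 249 and 274 CPM. The part of this in the DSS values of the members was not tested. All 10 epithelial markers (such as Krt8, Vil1 and Epcam) were present in every group, and the 6 T and B cell markers summed to 3.27 to 7.74 CPM in the groups labelled Rag-deficient other than TCT.

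No exon stretch of 50 bases of any member occurs in another gene, and only Cldn3 shares exon bases (3.177%) with a gene on the other strand. In GRCm38 (GENCODE M21) Cldn4 (ENSMUSG00000047501, chr5:134945119-134946934, minus strand) and Cldn3 (ENSMUSG00000070473, chr5:134986214-134987472, plus strand) are single-exon neighbours that point away from each other with 39279 bases between them. Ocln (ENSMUSG00000021638, chr13:100496507-100552718, minus strand) and Cldn2 (ENSMUSG00000047230, chrX:139800828-139811386, plus strand) lie apart. These 4 genes carry the contrasts described below, a neighbouring pair that parted in DSS, the member that was lower throughout, and the pore claudin that fell in DSS. Their promoters are shown as the 250 bases before the RefSeq start in GRCm38.p6, 5′ to 3′ on the gene's strand, none of them in an annotated exon, with motif matches in capitals (Ocln from the further upstream of its 2 starts).
Cldn4, chr5:134946935-134947184: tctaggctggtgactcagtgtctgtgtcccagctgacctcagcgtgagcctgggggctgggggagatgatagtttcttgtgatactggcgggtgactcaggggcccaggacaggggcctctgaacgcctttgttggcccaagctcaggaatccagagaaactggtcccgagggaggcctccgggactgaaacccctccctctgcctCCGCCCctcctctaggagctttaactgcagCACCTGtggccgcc
Cldn3, chr5:134985964-134986213: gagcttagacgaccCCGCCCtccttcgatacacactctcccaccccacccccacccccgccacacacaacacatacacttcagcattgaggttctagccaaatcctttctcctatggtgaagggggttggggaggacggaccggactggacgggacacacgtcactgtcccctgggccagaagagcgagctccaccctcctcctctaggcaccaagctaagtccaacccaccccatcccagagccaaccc
Ocln, chr13:100552719-100552968: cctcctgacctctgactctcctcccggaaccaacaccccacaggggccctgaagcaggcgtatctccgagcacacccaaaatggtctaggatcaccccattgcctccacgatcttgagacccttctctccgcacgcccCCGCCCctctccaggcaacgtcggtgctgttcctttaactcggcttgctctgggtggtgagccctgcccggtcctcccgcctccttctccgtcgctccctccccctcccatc
Cldn2, chrX:139800558-139800807: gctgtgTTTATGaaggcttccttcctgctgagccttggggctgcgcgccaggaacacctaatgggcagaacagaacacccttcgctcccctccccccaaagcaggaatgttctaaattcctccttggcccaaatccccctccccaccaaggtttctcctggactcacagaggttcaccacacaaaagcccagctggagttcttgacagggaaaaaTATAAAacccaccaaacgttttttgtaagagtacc

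The windows were searched for 6 motifs on both strands. Cldn4 held the E-box bound by Snail and Zeb repressors (CAGGTG) 14 bases before the start and an Sp1 match (GGGCGG) at 44, whereas its neighbour Cldn3 held only an Sp1 match, at 236. Ocln held an Sp1 match at 112, and its downstream start, whose window overlaps the one shown, held E-boxes at 213 and 68. Cldn2 held TATAAA at 35 and the CDX motif TTTATG at 244, the only such matches among the members. RefSeq promoters were found for 8 of the 10 genes, at 10 starts. Over these, the Sp1 motif was in 8 (32.7% of 32851 promoters of this length hold it), the E-box in 3 (17.2%), the STAT motif TTCNNNGAA in 1 (7.02%), TTTATG in 1 (10.8%), TATAAA in 1 (12.4%) and the grainyhead motif AACCNGTT in 0 (1.79%). A match describes letters only.

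In healthy colon the sealing claudins dominated. Per kilobase of exon, the WT controls had Cldn3 at 352 CPM, Cldn7 at 228 CPM and Cldn8 at 123 CPM. The pore claudin Cldn2 followed at 72.1 CPM per kilobase and Ocln at 50.9 CPM per kilobase, while Cldn4, Cldn23 and Tjp1 lay between 20.3 and 33.9 CPM per kilobase. Cldn15 was at 11.1 and Cldn1 at 1.3 CPM per kilobase, so Cldn1 rests on few counts (5 to 233 per mouse). Few of these genes were called between control groups. Between Rag2 and WT controls edgeR called 0 members (8.11% of all genes), with 2 at an unadjusted p under 0.05 and 3 by DESeq2. Between labelled Rag1 and Rag2 controls edgeR called 0 (0.124% of all genes), with 0 unadjusted and 2 by DESeq2. These shares belong to the edgeR calls alone, and no share of all genes is given for the unadjusted or DESeq2 counts.

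**Figure D1:**
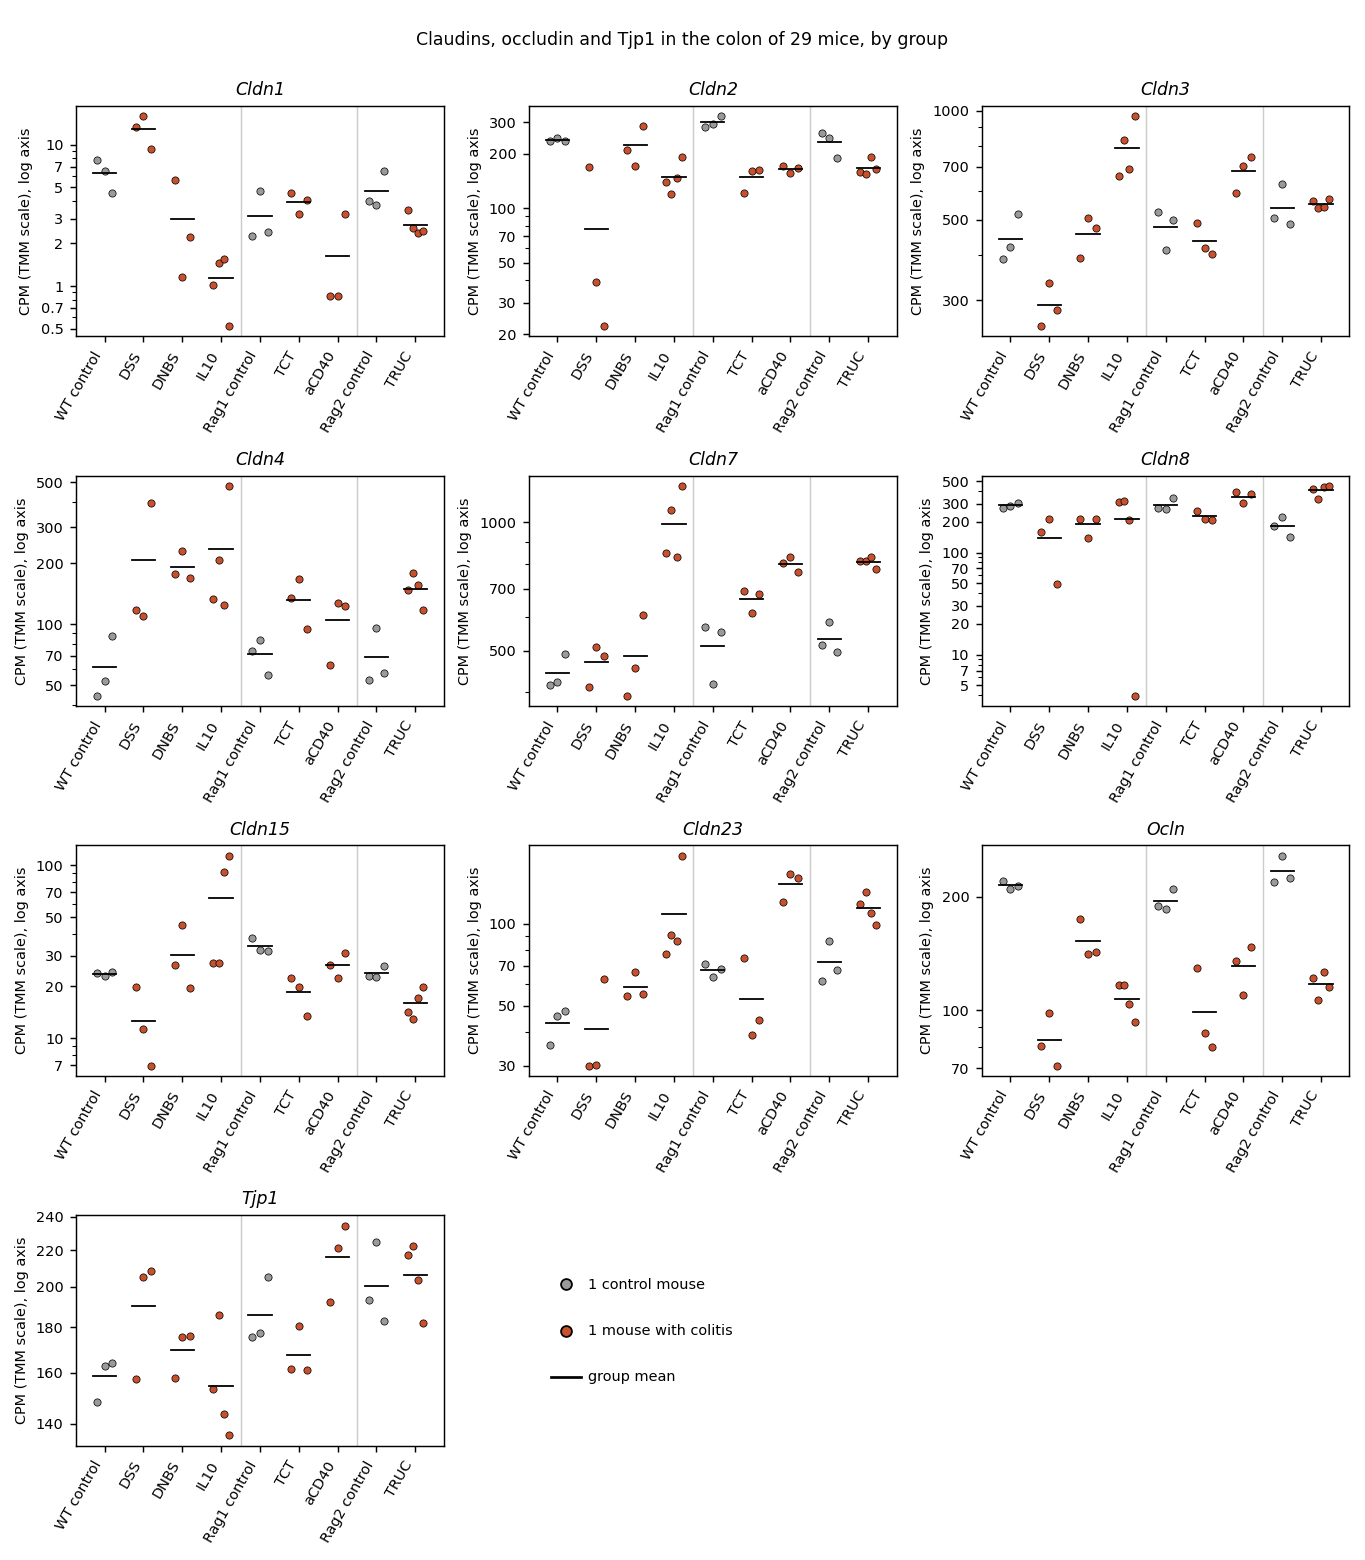
Levels of the 10 genes in each of 29 mice, in CPM on a log axis, by group, with controls in grey, mice with colitis in orange and a bar at each group mean. Ocln points of every model lie below those of its own control, which stands first in each block, and Cldn4 points lie above except in aCD40.

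The number of members called is to be read against the share of all genes called in the same comparison. At an edgeR adjusted p below 0.05 the members called were 4 of 10 in TRUC (45.8% of all 18616 genes tested), 4 in DSS (34.0%), 1 in DNBS (6.17%), 7 in IL10 (53.3%), 1 in TCT (30.1%) and 4 in aCD40 (21.6%). In TRUC 3 members were higher (22.4% of all genes) and 1 lower (23.4%), in DSS 1 higher (17.7%) and 3 lower (16.3%), and in DNBS 1 higher (3.95%) and 0 lower (2.21%). In IL10 5 were higher (27.2%) and 2 lower (26.1%), and the member called in TCT, Ocln, was lower. In aCD40 3 were higher (10.9%) and 1 lower (10.7%). At an unadjusted p under 0.05, for which no share of all genes is given, the counts in either direction were 4 in TRUC, 7 in DSS, 3 in DNBS, 7 in IL10, 4 in TCT and 5 in aCD40. The median log2 fold change of the members was 0.40 in IL10, 0.24 in aCD40, -0.25 in TCT and -0.34 in DSS, against -0.03 to 0.02 for all genes over the 6 models. Members whose mice did not overlap with the controls were 7 in TRUC (58.0% of all genes), 7 in DSS (49.9%), 4 in DNBS (32.5%), 8 in IL10 (55.7%), 6 in TCT (43.1%) and 6 in aCD40 (39.6%). Which junction genes rose and which fell differed between the models, as tested further on.

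**Figure D2:**
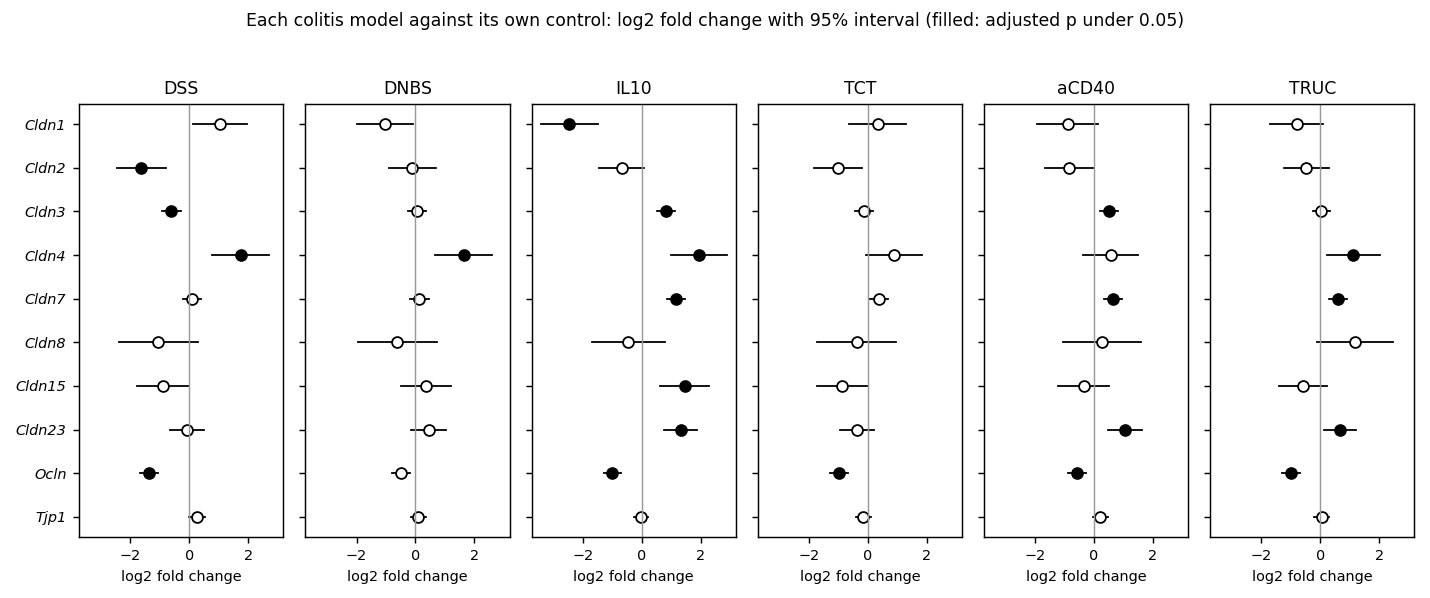
Log2 fold change of each gene in each colitis model against its own control, with the 95% interval as a bar and filled points for an edgeR adjusted p below 0.05. Ocln lies left of 0 and Cldn4 right of 0 in all 6 panels, while Cldn3, Cldn15 and Cldn1 lie on different sides in different models.

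Ocln was the member that fell most widely. WT controls were at 220.5, 210.4 and 213.4 CPM, DSS mice at 80.18, 97.98 and 71.2 CPM, DNBS mice at 174.6, 141.1 and 142.4 CPM, and IL10 mice at 116.4, 116.6, 103.5 and 92.68 CPM. Every mouse of the 3 models lay below every WT control, the DNBS mice least so. The fall was 2.58-fold in DSS (log2 fold change -1.37 ± 0.15 SE, edgeR adjusted p = 1.96e-06) and 2.00-fold in IL10 (-1.001 ± 0.14 SE, edgeR adjusted p = 5.9e-06). In DNBS Ocln was 1.41-fold lower, just short of the threshold (-0.49 ± 0.15 SE, edgeR adjusted p = 0.0521), and it passed under other scalings and in DESeq2 (adjusted p = 0.00665). The labelled Rag1 controls had 189.6, 186.2 and 209.3 CPM, TCT mice 129.5, 86.88 and 79.92 CPM, and aCD40 mice 134.8, 109.9 and 147.2 CPM. Ocln fell 1.97-fold in TCT (edgeR adjusted p = 2.87e-05) and 1.49-fold in aCD40 (edgeR adjusted p = 0.00887). Against the other control groups it was 2.17-fold lower in TCT and 1.79-fold lower in aCD40 (edgeR adjusted p = 1.69e-05 and 0.000518). Rag2 controls were at 219.3, 256.9 and 225.0 CPM and TRUC mice at 121.6, 106.5, 125.9 and 115.4 CPM, without overlap and 1.99-fold lower (-0.99 ± 0.14 SE, edgeR adjusted p = 9.92e-06). Without aCD40 mouse 7, Ocln in aCD40 no longer passed (edgeR adjusted p = 0.0764). In such whole-tissue RNA, fewer cells of a type and less RNA per cell cannot be told apart. Models that share a control group (DSS, DNBS and IL10; TCT and aCD40) share its 3 mice in these comparisons.

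Cldn4, a sealing claudin that is low in healthy colon, moved the other way. WT controls were at 44.4, 52.51 and 87.62 CPM, DSS mice at 116.8, 109.8 and 394.4 CPM, DNBS mice at 176.1, 229.1 and 169.4 CPM, and IL10 mice at 133.4, 207.0, 124.2 and 479.6 CPM. No mouse of these models overlapped with the WT controls, although DSS mouse 8 and IL10 mouse 4 were far above the rest of their groups. Cldn4 rose 3.84-fold in IL10 (1.94 ± 0.46 SE, edgeR adjusted p = 0.00111), 3.37-fold in DSS (1.75 ± 0.47 SE, edgeR adjusted p = 0.00588) and 3.12-fold in DNBS (1.64 ± 0.47 SE, edgeR adjusted p = 0.0386), where it was the only member called. TRUC mice had 146.8, 179.2, 155.8 and 116.8 CPM against 53.18, 95.67 and 57.36 CPM in Rag2 controls, again without overlap, a 2.18-fold rise (1.12 ± 0.44 SE, edgeR adjusted p = 0.0406). TCT mice (133.9, 167.5 and 94.83 CPM) also lay above the labelled Rag1 controls (73.57, 83.19 and 56.16 CPM), but the 1.86-fold difference did not pass (edgeR adjusted p = 0.149), although it did on the groups compared alone (edgeR adjusted p = 0.0113). In aCD40 the mice (62.71, 127.5 and 123.1 CPM) overlapped with the controls (0.56, edgeR adjusted p = 0.41). The spread between mice was wide, and single libraries decided several of these calls. The DSS call was lost without DSS mouse 8 (log2 fold change 0.88, edgeR adjusted p = 0.142) and on the groups compared alone (edgeR adjusted p = 0.0558), and the DNBS call without DNBS mouse 14 or 16 or WT control 1 or 2 (edgeR adjusted p from 0.0771 to 0.163). In TRUC it was lost without TRUC mouse 2, 3 or 4 or Rag2 control 1 or 4 (edgeR adjusted p from 0.0576 to 0.142).

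Cldn7, an abundant claudin of both the junction and the lateral membrane, rose in the models labelled IL10, aCD40 and TRUC. IL10 mice were at 848.9, 1072, 829.4 and 1217 CPM against 415.2, 423.2 and 491.3 CPM in WT controls, aCD40 mice at 802.5, 828.9 and 766.4 CPM against 568.2, 419.1 and 553.3 CPM in labelled Rag1 controls, and TRUC mice at 814.5, 812.4, 831.5 and 779.5 CPM against 516.0, 585.7 and 496.7 CPM in Rag2 controls. None of these groups overlapped, and the TRUC mice were nearly alike. The rises were 2.24-fold in IL10 (1.16 ± 0.15 SE, edgeR adjusted p = 1.81e-06), 1.56-fold in aCD40 (0.64 ± 0.15 SE, edgeR adjusted p = 0.00479) and 1.52-fold in TRUC (0.60 ± 0.14 SE, edgeR adjusted p = 0.00161). TCT mice (692.6, 614.7 and 678.3 CPM) also lay above their controls, with a call only against the WT controls (0.58, edgeR adjusted p = 0.00617) and not against the labelled Rag1 controls (0.37, edgeR adjusted p = 0.071). In DSS and DNBS the mice overlapped with the controls, at log2 fold changes of 0.08 (95% interval -0.23 to 0.40) and 0.13 (-0.18 to 0.45).

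Cldn3, the most abundant member per kilobase in WT controls, rose or fell depending on the model. DSS mice (255.3, 335.1 and 281.5 CPM) all lay below the WT controls (389.3, 420.5 and 518.0 CPM), and IL10 mice (661.5, 829.9, 689.2 and 964.6 CPM) all above them. It was 1.52-fold lower in DSS (-0.61 ± 0.15 SE, edgeR adjusted p = 0.00355) and 1.78-fold higher in IL10 (0.83 ± 0.14 SE, edgeR adjusted p = 6.33e-05). In aCD40 Cldn3 was at 593.4, 704.6 and 747.0 CPM against 526.9, 412.6 and 498.4 CPM, 1.42-fold higher (edgeR adjusted p = 0.0192). This call was lost against the Rag2 controls (0.34, edgeR adjusted p = 0.105), without aCD40 mouse 7 (edgeR adjusted p = 0.076) and without Rag1 control 3 (edgeR adjusted p = 0.0987). Its mice overlapped with the controls in DNBS, TCT and TRUC, with log2 fold changes of 0.05, -0.13 and 0.04. In DSS the neighbouring pair thus parted, Cldn3 falling where Cldn4 rose, though the Cldn4 call there was lost without DSS mouse 8. In IL10 both were called higher.

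Cldn23, a claudin of differentiated surface colonocytes, was highest in aCD40. The aCD40 mice were at 120.5, 151.9 and 146.9 CPM, against 70.89, 63.46 and 68.37 CPM in labelled Rag1 controls, 2.07-fold higher (1.05 ± 0.28 SE, edgeR adjusted p = 0.0104). It was also called against the Rag2 controls (0.96, edgeR adjusted p = 0.016). IL10 mice were at 77.43, 90.99, 86.69 and 177.7 CPM, and mouse 4 stood well above the others. All 4 lay above the WT controls (35.79, 45.73 and 47.54 CPM), a 2.51-fold rise (1.33 ± 0.27 SE, edgeR adjusted p = 0.000318). TRUC mice (99.27 to 131.2 CPM) lay above Rag2 controls (61.76 to 86.57 CPM), a 1.59-fold rise with an edgeR adjusted p of 0.0422 that was lost without any one of TRUC mice 2, 3 and 4 or Rag2 controls 1 and 4 (0.0596 to 0.149). In DSS, DNBS and TCT Cldn23 was not called, with log2 fold changes of -0.08, 0.45 and -0.36.

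Cldn1 is a sealing claudin best known from epidermis, and at a few CPM it was the scarcest member. DSS mice had 13.46, 15.92 and 9.27 CPM, above WT controls at 7.768, 6.523 and 4.59 CPM, a log2 difference of 1.03 that did not pass (edgeR adjusted p = 0.0735). On the groups compared alone it passed, in edgeR (adjusted p = 0.0397) and in DESeq2 (adjusted p = 0.00649). IL10 mice were at 1.011, 1.454, 1.543 and 0.5224 CPM, below every WT control, a 5.49-fold fall (-2.46 ± 0.47 SE, edgeR adjusted p = 0.000161). The opposite sides on which DSS and IL10 mice lay gave the largest fold change of any member in the 4 direct comparisons of models, 11.2-fold lower in IL10 than in DSS (edgeR adjusted p = 2.71e-06). DNBS, aCD40, TRUC and TCT were not called against their own controls, with log2 fold changes of -1.04, -0.90, -0.80 and 0.33. The lower Cldn1 in TRUC passed on the groups compared alone, in edgeR (adjusted p = 0.0175) and in DESeq2 (adjusted p = 0.0192). Against the Rag2 controls, aCD40 was lower by 1.49 on the log2 scale (edgeR adjusted p = 0.0297). Without DNBS mouse 11 Cldn1 fell in DNBS (-1.90, edgeR adjusted p = 0.0163), and without aCD40 mouse 8 in aCD40 (-1.87, edgeR adjusted p = 0.0173).

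Cldn8, which seals the distal colon against sodium leak, was called in 0 of the 6 models by edgeR, with 0 at an unadjusted p under 0.05. TRUC mice were at 421.8, 334.4, 438.4 and 447.9 CPM and Rag2 controls at 183.6, 225.3 and 141.3 CPM. The groups lay far apart, yet the log2 difference of 1.16 carried an SE of 0.63 and an edgeR adjusted p of 0.132 in the fit over all 29 mice. Among these 29, IL10 mouse 4 was at 3.971 CPM, and the part of this mouse in the SE was not tested. Fitted on TRUC and Rag2 controls alone, Cldn8 was called by edgeR (adjusted p = 6.16e-05) and by DESeq2 (adjusted p = 5.6e-14), and DESeq2 called it in 2 models in all. Mice of DSS (159.0, 211.5 and 48.74 CPM) and DNBS (211.4, 139.3 and 215.0 CPM) all lay below WT controls (276.1, 288.1 and 303.1 CPM), at log2 differences of -1.05 and -0.62 that were not called (edgeR adjusted p = 0.224 and 0.587). TCT mice also all lay below their controls (-0.37, edgeR adjusted p = 0.709), while IL10 (-0.45) and aCD40 (0.27) mice overlapped with theirs.

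Of the pore claudins, Cldn2 had a lower mean in all 6 models but was called in DSS alone. WT controls were at 237.2, 245.5 and 236.6 CPM, DSS mice at 169.6, 39.08 and 22.29 CPM, and DNBS mice at 211.4, 171.1 and 287.2 CPM. DSS mice all lay below the controls, mouse 5 much less so, and DNBS mice overlapped with them. The fall in DSS was 3.11-fold (-1.64 ± 0.40 SE, edgeR adjusted p = 0.00313), and it was not called by edgeR on DSS and WT controls alone (adjusted p = 0.131). IL10 mice (119.3 to 191.6 CPM), TCT mice (121.8 to 163.6 CPM against 280.8 to 323.6 CPM) and aCD40 mice (157.6 to 171.0 CPM) all lay below their controls. Their log2 differences of -0.68, -1.003 and -0.85 did not pass (edgeR adjusted p = 0.119, 0.0585 and 0.124), but DESeq2 on the groups compared called each (adjusted p = 0.00071, 1.19e-07 and 1.43e-08). TRUC mice at 153.9 to 192.7 CPM overlapped with Rag2 controls at 189.0 to 259.6 CPM, at a log2 difference of -0.47 (edgeR adjusted p = 0.306) that was called on the groups compared alone by edgeR (adjusted p = 0.00418) and DESeq2 (adjusted p = 0.000912). DESeq2 thus called Cldn2 in 5 of the 6 models, the exception being DNBS, which edgeR did not call either (-0.10, edgeR adjusted p = 0.903).

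Cldn15 set IL10 mice 3 and 4 apart. Its IL10 levels were 27.21, 27.32, 91.83 and 113.3 CPM, against 23.68, 23.03 and 24.26 CPM in WT controls, and 6.952 to 45.41 CPM in the 27 mice other than IL10 mice 3 and 4. All 4 lay above the controls, mice 1 and 2 only just, and the 2.74-fold rise (1.46 ± 0.40 SE, edgeR adjusted p = 0.00394) was lost without mice 3 and 4 (0.21, edgeR adjusted p = 0.612). In the same pair of mice Cdx2, the transcription factor of intestinal identity, was at 167 and 469 CPM against 3.88 to 93.0 CPM in the other 27. Hoxa13 was at 67.1 CPM in mouse 3 and 0.731 CPM in mouse 4, against 26.4 to 95.4 CPM elsewhere. Cldn8 was at 209 CPM in mouse 3 and at 3.97 CPM in mouse 4, below the 48.7 to 448 CPM of the others. The part that the position of the sampled tissue had in these values was not tested. In DSS (19.68, 11.27 and 6.952 CPM), TCT (22.25, 19.9 and 13.43 CPM) and TRUC (14.15, 12.98, 17.12 and 19.69 CPM) all mice lay below their controls, at log2 differences of -0.90, -0.88 and -0.58 that were not called (edgeR adjusted p = 0.104, 0.118 and 0.229). On the groups compared alone DESeq2 called all 3 (adjusted p = 0.0492, 0.000438 and 0.00117), and edgeR called TCT and TRUC (adjusted p = 0.00634 and 0.00464). The aCD40 mice also all lay below their controls (-0.36, edgeR adjusted p = 0.578), and DNBS mice overlapped with theirs (0.36, edgeR adjusted p = 0.617). The DSS difference passed without DSS mouse 5 (-1.38, edgeR adjusted p = 0.0265).

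**Figure D3:**
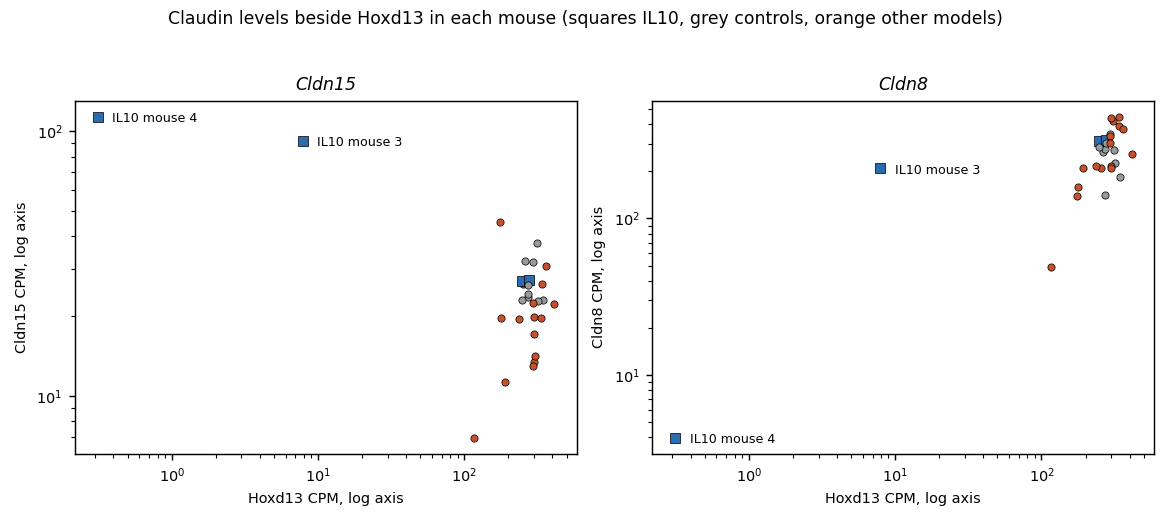
Cldn15 (left) and Cldn8 (right) against Hoxd13 in each of 29 mice, all in CPM on log axes, with IL10 mice as squares, controls in grey and other models in orange. IL10 mice 3 and 4 lie far to the left at 7.89 and 0.313 CPM of Hoxd13, with the highest Cldn15 of all mice, and mouse 4 with the lowest Cldn8.

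Leaving out IL10 mice 3 and 4 kept 6 of the 7 calls in IL10 (44.4% of all genes were then called). Cldn4 (1.47), Cldn7 (1.12), Cldn23 (0.97) and Cldn3 (0.76) remained higher and Cldn1 (-2.36) and Ocln (-0.88) lower, with edgeR adjusted p from 1.26e-05 to 0.00826. Cldn8 then stood at 0.13 and Cldn15 at 0.21, neither called.

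Tjp1, the scaffold, was the steadiest member, with 135.9 to 234.4 CPM over all 29 mice and group means within 1.4-fold of each other. edgeR called it in 0 of 6 models (1 at an unadjusted p under 0.05, 0 by DESeq2). Its log2 fold changes and 95% intervals were 0.04 (-0.20 to 0.28) in TRUC, 0.26 (0.01 to 0.52) in DSS, 0.10 (-0.16 to 0.36) in DNBS, -0.03 (-0.28 to 0.21) in IL10, -0.15 (-0.41 to 0.11) in TCT and 0.22 (-0.04 to 0.47) in aCD40. These intervals leave room for changes of up to 0.52 on the log2 scale. Without DSS mouse 5 the rise in DSS passed (0.38, edgeR adjusted p = 0.0265).

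Ordered by group mean, Ocln ran from 233.7 ± 20.2 CPM (SD, n = 3) in Rag2 controls and 214.8 ± 5.17 CPM (n = 3) in WT controls through 195.0 ± 12.5 CPM (n = 3) in labelled Rag1 controls to 152.7 ± 18.9 CPM (n = 3) in DNBS. Below these came aCD40 (130.7 ± 19.0 CPM, n = 3), TRUC (117.3 ± 8.42 CPM, n = 4), IL10 (107.3 ± 11.5 CPM, n = 4), TCT (98.8 ± 26.9 CPM, n = 3) and DSS (83.1 ± 13.6 CPM, n = 3). All 3 control groups thus stood above all 6 models, and of the 8 neighbouring pairs in this order only WT over labelled Rag1 controls and these over DNBS did not overlap. Cldn4 ran the other way, with all 6 models above the controls from IL10 (236.1 ± 167 CPM, n = 4) to WT controls (61.5 ± 23.0 CPM, n = 3), and each of its 8 neighbouring pairs overlapped. Between the highest and lowest group means the fold was 11.4 for Cldn1 (DSS over IL10), 5.14 for Cldn15 (IL10 over DSS), 3.88 for Cldn2 (labelled Rag1 controls over DSS) and 3.42 for Cldn23 (aCD40 over DSS). It was 2.94 for Cldn8 (TRUC over DSS), 2.7 for Cldn3 (IL10 over DSS) and 2.24 for Cldn7 (IL10 over WT controls).

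Whether the models differed from each other was tested for each gene by asking if its 6 fold changes were equal, which edgeR rejected for 8 of 10 members (60.5% of all genes). Adjusted p values ran from 7.79e-07 for Cldn3 to 0.0473 for Tjp1, and Cldn4 and Cldn8 were the members for which equal fold changes were not rejected (edgeR adjusted p = 0.489 and 0.3). Cldn4 is thus not shown to rise more in one model than another. Between the 2 chemical models, DSS against DNBS, 5 members were called (22.6% of all genes). Cldn1 was higher in DSS (2.08), and Cldn2 (-1.53), Cldn15 (-1.26), Ocln (-0.88) and Cldn3 (-0.66) were lower, with edgeR adjusted p from 0.000549 to 0.0339. Fitted on the 2 groups alone, edgeR called 0 members and DESeq2 3, counts for which no share of all genes is given. IL10 against DSS gave 8 calls (49.8% of all genes), with Cldn15 (2.35), Cldn3 (1.44), Cldn23 (1.41), Cldn7 (1.08), Cldn2 (0.96) and Ocln (0.37) higher in IL10 and Cldn1 (-3.49) and Tjp1 (-0.30) lower. Without IL10 mice 3 and 4, Cldn2 (0.75, edgeR adjusted p = 0.188) and Tjp1 (-0.15, edgeR adjusted p = 0.36) were no longer called, Cldn8 was (1.19, edgeR adjusted p = 0.00616), and Cldn15 stood at 1.11 (edgeR adjusted p = 0.0069). IL10 against DNBS gave 6 calls (33.9% of all genes), of which Cldn3 (0.78) and Cldn7 (1.03) remained without IL10 mice 3 and 4. TCT against aCD40, which share a labelled control, gave 3 calls (18.4% of all genes), Cldn23 (-1.41), Cldn3 (-0.64) and Tjp1 (-0.37), all lower in TCT. TCT and aCD40 mice also differed in H2-Ea-ps RNA, so strain background and model cannot be told apart in this comparison. The same holds for TCT against the labelled Rag1 controls, a contrast that also enters the F test of the 6 models. Against the other control groups TCT kept a called fall of Ocln and gained Cldn7 (2 of 10, 30.8% of all genes), and aCD40 had Cldn7, Cldn23, Ocln and Cldn1 called (4 of 10, 24.2% of all genes). The uncalled members of TCT against WT controls were Cldn4 (1.10), Cldn23 (0.29), Tjp1 (0.08), Cldn3 (-0.018), Cldn8 (-0.35), Cldn15 (-0.35), Cldn1 (-0.67) and Cldn2 (-0.69), with edgeR adjusted p from 0.0727 for Cldn4 to 0.942 for Cldn3. Those of aCD40 against Rag2 controls were Cldn8 (0.95), Cldn4 (0.60), Cldn3 (0.34), Cldn15 (0.15), Tjp1 (0.11) and Cldn2 (-0.49), with edgeR adjusted p from 0.105 for Cldn3 to 0.827 for Cldn15.

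RNA of epithelial markers also differed between several models and their controls. The 10 epithelial markers summed to 8380 to 11190 CPM in DSS, 17130 to 23180 CPM in IL10 and 12570 to 15770 CPM in DNBS, against 11940 to 14030 CPM in WT controls. Those of TRUC (16770 to 18100 CPM) and aCD40 (15550 to 16870 CPM) lay above their controls (14810 to 15910 and 13000 to 14390 CPM), and those of TCT (14100 to 16110 CPM) overlapped. The 6 smooth muscle markers summed to 2627 to 4952 CPM in IL10 against 6484 to 8056 CPM in WT controls, and the 5 leukocyte markers to 803.1 to 1841 CPM in DSS against 288.8 to 345.7 CPM. The part of these differences in the members' changes was not tested, but each member was also read per 10000 CPM of the 10 epithelial markers in the same library. Ocln stood at 169 in WT controls, 87.3 in DSS, 111 in DNBS and 56.1 in IL10, at 142 in labelled Rag1 controls, 63.8 in TCT and 80.3 in aCD40, and at 154 in Rag2 controls and 67.5 in TRUC. All mice of every model lay below their controls on this scale too. Cldn4 stood at 47.5 in WT controls, 233 in DSS, 139 in DNBS and 114 in IL10, at 51.8 in labelled Rag1 controls and 85.0 in TCT, and at 44.9 in Rag2 controls and 86.0 in TRUC, without overlap, while aCD40 at 64.5 overlapped. DSS mouse 8 stood at 471 for Cldn4, and the other DSS mice at 98.1 and 130. Of the members called by edgeR in CPM, those whose mice overlapped with the controls on this scale were Cldn3 (307 against 346) and Cldn2 (83.4 against 189) in DSS, Cldn15 in IL10 (32.9 against 18.6) and Cldn3 in aCD40 (419 against 347). Cldn7 in DSS, which overlapped in CPM, was higher in all mice (499 against 347). Tjp1 was higher in all mice of DSS (202 against 125) and lower in all mice of IL10 (80.4 against 125) and TCT (109 against 135). Over the 6 models, 39 of 60 such ratios did not overlap with the controls (48.8% of all genes over the 6 models), 40 without IL10 mice 3 and 4, and 41 with the other control groups for TCT and aCD40. The smallest two-sided p an exact permutation test can give here is 0.0571 with 4 mice against 3 and 0.1 with 3 against 3, and after adjustment over the 60 ratios the lowest was 0.154.

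**Figure D4:**
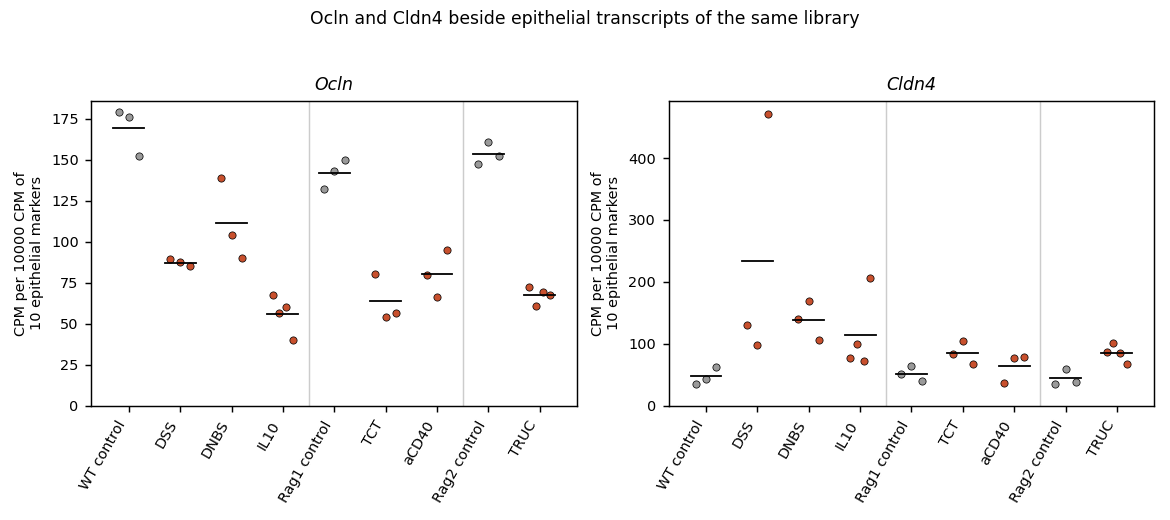
Ocln (left) and Cldn4 (right) per 10000 CPM of 10 epithelial markers in each mouse, by group, with controls in grey, mice with colitis in orange and a bar at each group mean. Ocln means fell from 169 to between 56.1 and 111 in the models compared with WT controls, and Cldn4 means rose from 47.5 to between 114 and 233.

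Other genes of the junction, read from lists of known components, also moved in both directions. Counts in these lists are to be read against the shares of all genes called higher and lower. These were 22.4% and 23.4% in TRUC, 17.7% and 16.3% in DSS, and 27.2% and 26.1% in IL10. In DNBS they were 3.95% and 2.21%, and in aCD40 10.9% and 10.7%. For TCT 30.1% of all genes were called in either direction. Of 15 other claudins counted, 6 had enough counts. Cldn12, a broadly expressed claudin, fell in DSS (-0.89, edgeR adjusted p = 4.13e-05), IL10 (-0.59, edgeR adjusted p = 0.000504) and TCT (-0.54, edgeR adjusted p = 0.00404). Cldn5, the claudin of blood vessels, fell in TRUC (-1.26, edgeR adjusted p = 0.00165) and IL10 (-0.75, edgeR adjusted p = 0.0346), there not without mice 3 and 4 (-0.33, edgeR adjusted p = 0.406). The remaining calls were rises of Cldn9 in DNBS and IL10, named after its values were seen, a gene at no more than 1.08 CPM in any mouse. Of 10 further membrane proteins, 2 rose and 4 fell in TRUC, 1 and 3 in DSS, 2 and 3 in IL10, 0 and 2 in TCT, 3 and 1 in aCD40, and 0 changed in DNBS. Igsf5 (JAM4), an adhesion molecule of epithelial junctions, rose in IL10 (1.68), TRUC (1.14) and aCD40 (1.02), while Jam2, an adhesion molecule mainly of vessels, fell in the same models (-1.61, -0.92 and -0.94). Ildr2, of the angulin family of tricellular junction proteins, rose in DSS (1.98, edgeR adjusted p = 0.000342). The 16 other scaffold and polarity proteins divided into 4 higher and 4 lower in TRUC, 1 and 5 in DSS, 5 and 4 in IL10, 2 and 3 in TCT, 4 and 2 in aCD40, and 0 in DNBS. Crb3, an apical polarity protein, rose in IL10 (1.24), aCD40 (0.75) and TRUC (0.72), Pard6b, of the Par polarity complex, in IL10 (1.05), DSS (0.83) and TRUC (0.79), and Mpdz, a scaffold with many PDZ domains, fell in IL10 (-1.45) and TRUC (-1.21). In DNBS the edgeR counts at an unadjusted p under 0.05 were 3 of 10 membrane proteins and 1 of 16 scaffold and polarity proteins.

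Further lists held proteins that act on claudins and genes of the neighbouring junctions. In IL10, 27.2% of all genes and 9 of the 10 epithelial markers were called higher. Of 7 partners and surface proteases, 6 rose and 0 fell in IL10, 2 and 3 in DSS, 3 and 2 in TRUC, and 2 and 1 in TCT and aCD40. St14 (matriptase), a surface protease of epithelium, rose in IL10 (1.41), aCD40 (0.89), TRUC (0.69) and DSS (0.56), and F2rl1 (PAR2), a receptor cleaved by such proteases, in TCT (1.07), IL10 (0.81), aCD40 (0.61) and TRUC (0.51). Epcam, which binds Cldn7, rose in IL10 (0.61, edgeR adjusted p = 0.000236) and was called in no other model. Of 14 adherens junction and desmosome genes, 6 rose and 1 fell in IL10, 3 and 0 in TRUC and DNBS, 4 and 0 in aCD40, 2 and 1 in TCT, and 0 and 3 in DSS. The desmosomal Pkp3 rose in IL10 (1.42), TCT (0.82), TRUC (0.80) and aCD40 (0.76), Dsc2 in IL10 (1.33), TRUC (0.99), aCD40 (0.83), DNBS (0.61) and TCT (0.55), and Nectin2 in IL10 alone (1.14). Cdh1 (E-cadherin) was called in no model, with log2 fold changes from -0.27 to 0.16 and a lowest edgeR adjusted p of 0.091.

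Among transcription factors, Snai1, Snai2, Zeb1 and Zeb2, which repress epithelial genes, were counted apart from 13 factors of epithelial cells, a split made after the values were seen. In DSS the 4 repressors rose and 10 of the 13 others fell, where 17.7% of all genes were called higher and 16.3% lower. There 5 of 5 leukocyte, 5 of 5 endothelial and 2 of 5 stromal markers were also called higher, and 4 of 10 epithelial markers lower. In these lists 0 markers were called the other way. The part of such shifts between cell types in the counts of factors was not tested. Hnf4g (-1.94, edgeR adjusted p = 2.32e-05), Ovol2 (-1.72, edgeR adjusted p = 1.49e-06) and Hnf4a (-0.80, edgeR adjusted p = 0.000134), factors that maintain epithelial identity, fell there. Hnf4g also fell in IL10 (-1.26, edgeR adjusted p = 0.000236) and TRUC (-0.66, edgeR adjusted p = 0.0337). Hnf4a rose in IL10 (0.58, edgeR adjusted p = 0.000787), as did Cdx2 (4.93, from 11.32 to 468.7 CPM over the 4 mice), and both were still called without mice 3 and 4 (Hnf4a 0.43 and Cdx2 1.32, edgeR adjusted p = 0.0127 and 0.0185). In TCT Cdx2 was lower than in the labelled Rag1 controls (-2.56, edgeR adjusted p = 0.0199), but its mean of 13.7 CPM lay above the 5.44 CPM of the WT controls, a difference that was not called (1.34, edgeR adjusted p = 0.239). Of the repressors, 0 rose and 1 fell in TRUC, 0 and 2 in IL10, and 3 and 0 in TCT, while of the others 0 rose and 4 fell in TRUC, 5 and 3 in IL10, 1 and 3 in TCT, and 1 and 0 in aCD40. In DNBS edgeR called 0 of all 17 (4 at an unadjusted p under 0.05), and in aCD40 0 of the repressors (0 at an unadjusted p under 0.05). Of 7 cytokines known to act on claudin genes, 6 could be tested, and 6 rose in DSS, 4 in TRUC and IL10, 3 in TCT, 2 in aCD40 and 1 in DNBS. Il1b was higher in every model, at means of 10.1 CPM in aCD40 to 474 CPM in DSS against 0.954 to 1.35 CPM in controls. In DSS it ran from 48.4 to 1290 CPM over the 3 mice. Il22 was called in DSS (0.683 to 50.6 CPM) and TRUC (1.30 to 3.11 CPM), and Ifng in DSS (0.137 to 47.5 CPM), TCT (3.93 to 6.95 CPM), IL10 (2.80 to 7.00 CPM) and TRUC (0.895 to 3.11 CPM), against no more than 0.153 CPM in any control mouse.

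These lists were also read with the alternative groups. Of all genes, 44.4% were called in IL10 without mice 3 and 4. Against the other control groups 30.8% were called in TCT and 24.2% in aCD40. Without IL10 mice 3 and 4, the counts higher and lower in IL10 were 2 and 1 for other claudins, 3 and 4 for membrane proteins, 5 and 4 for scaffold and polarity proteins, 6 and 0 for partners and proteases, 7 and 0 for adherens junctions and desmosomes, 4 and 2 for the 17 transcription factors, and 3 and 0 for cytokines. Against the WT controls, TCT mice also had higher Igsf5 (1.01), St14 (0.74) and Crb3 (0.55) and lower Jam2 (-0.85), with edgeR adjusted p from 0.0038 to 0.0162, while F2rl1 stood at 0.41 (edgeR adjusted p = 0.027). Against the Rag2 controls, aCD40 mice kept the calls of Igsf5 (0.86), Jam2 (-0.98), Crb3 (0.74), St14 (1.06), F2rl1 (0.49), Dsc2 (0.73) and Pkp3 (0.53).

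Genes whose group means followed a member most closely were ranked by the root mean square difference of their centred log2 CPM over the 9 groups, among 15405 genes. Ocln was matched best by Thrb (0.07), a thyroid hormone receptor, and Hes1 (0.12), a Notch target, against a spread of Ocln itself of 0.50. Closest to Cldn3 were Mapk3 and Atp5d (both 0.07), and to Cldn7 Uqcrq and Pls1 (both 0.07). Cldn4 (Pmepa1, 0.21), Cldn2 (Gm13648, 0.15), Cldn23 (Chac2, 0.20), Cldn15 (Cited4, 0.23), Cldn8 (Rdh18-ps, 0.29) and Cldn1 (Cpeb1, 0.32) had no neighbour as near, and for Tjp1, which varied by only 0.16, 2810004N23Rik lay at 0.06. These rankings rest on 9 group means and describe likeness alone.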

How the data were processed

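Colon poly(A) RNA of 29 mice was prepared with a NEBNext kit, whose strand handling is not stated. The authors deposited raw counts per Ensembl gene. Trimmomatic, HISAT2, HTSeq and GRCm38 are named in the submitters' processing notes, with versions not given in the sources used here. Reads of overlapping genes and of the 2 strands can therefore not be told apart by gene. The 92 spike-in entries held 0 counts and were left out, and 0 columns of values went unmapped. Groups follow the labels.

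Testing covered the 18616 of 54532 genes whose mean count reached 3, with edgeR 4.0.16 (quasi-likelihood, TMM, R 4.3.3) in 1 fit of all 29 mice, p-values adjusted over these genes (Benjamini-Hochberg) and a threshold of 0.05. Equality of the 6 model effects was tested by an F test in the same fit. The edgeR p-values of this fit set each difference against a spread between mice estimated from all 9 groups together, not from the compared groups alone. Ratios to epithelial markers were tested by exact two-sided permutation over mice (SciPy 1.17.1). Alternatives were DESeq2 1.42.0 and edgeR on the groups compared, other scalings and filters, a threshold of 0.01, other control groups, a replicate block, and leaving out each mouse. The fit was also run on counts simulated from its own estimates of spread, with changes planted in TRUC. Such a run checks the code and cannot show whether the shared spread suits each group.

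All 10 members are named for each model against its own control. From each further list, up to 3 genes with the largest called change whose mice did not overlap are named, plus Epcam, Cdh1, Cdx2 and Hnf4a. A gene that this rule names is not reported here. Members and lists were chosen with earlier results of these data known. Promoters come from RefSeq (GRCm38.p6).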

Additional observations from a re-analysis of the deposited data

Results flagged for a closer look

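Cldn23 in IL10 mouse 4 was at 178 CPM, with a gap to the nearest other IL10 mouse of 0.865 of the group's whole range. It was the only one of 20 combinations of gene and group of 4 mice past Dixon's criterion, which chance passes in about 1 in 20. The same mouse had the lowest Hoxd13 of all, and the part of this in its Cldn23 level was not tested.

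The fold changes over the 6 models differed from each other for 8 members in edgeR's F test. The adjusted p was 7.79e-07 for Cldn3, 8.76e-06 for Cldn7, 2.51e-05 for Cldn1, 0.000111 for Cldn23, 0.000394 for Cldn15 and 0.000438 for Ocln. For Tjp1 and Cldn2 it was close to the threshold, at 0.0473 and 0.0449. Tjp1 was called in 0 models by itself (edgeR, 1 at an unadjusted p under 0.05), and the labels of several groups were in doubt, which was not resolved for these tests.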

How the results depend on the processing

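Of 870 recomputed fold changes, 777 kept their direction and side of the threshold, 31 lost a call, 39 gained one and 23 reversed, 0 of them called. Unless a setting's construction (fewer mice) shows it, the cause was not tested. Most member counts below come without the share of all genes under the same setting. They describe how stable the calls were, not how the members compare with all genes. Members called went from 4 to 2 in TRUC at a threshold of 0.01 and with upper quartile scaling, and to 8 with edgeR or DESeq2 on the groups compared. In DNBS 1 became 0 at 0.01, 2 with RLE or upper quartile scaling and 3 with DESeq2. In TCT 1 became 2 with the WT controls and 4 with edgeR or DESeq2 on the groups compared, and in aCD40 4 became 2 at 0.01. DSS against DNBS went from 5 to 0 with edgeR alone and 3 with DESeq2, IL10 against DSS from 8 to 5 at 0.01 and with either tool on the groups compared, and IL10 against DNBS from 6 to 3 at 0.01 and with edgeR alone, and to 2 without IL10 mice 3 and 4, an alternative chosen after seeing the data. Rag2 against WT controls went from 0 to 3 with either tool, and labelled Rag1 against Rag2 controls from 0 to 1 (edgeR) and 2 (DESeq2).

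Leaving out each mouse gave 2 to 4 calls in TRUC, 3 to 6 in DSS, 0 to 3 in DNBS, 7 to 7 in IL10, 1 to 1 in TCT, 2 to 5 in aCD40, 4 to 5 for DSS against DNBS, 6 to 7 for IL10 against DSS, 2 to 6 for IL10 against DNBS, 2 to 3 for TCT against aCD40, 0 to 0 between controls, 6 to 8 members differing between models and 39 to 43 ratios. Uncalled log2 fold changes that crossed 0 were Cldn3 in TRUC (-0.0673 with upper quartile scaling, -0.0024 on the same mice without the block, -0.0342 to 0.16 leaving out a mouse), Tjp1 in TRUC (-0.0626 with upper quartile scaling, -0.0193 to 0.13), Cldn23 in DSS (-0.51 to 0.10), and in DNBS Cldn2 (-0.32 to 0.0607), Cldn3 (-0.0277 with upper quartile scaling, -0.0277 to 0.18), Cldn7 (-0.0579 to 0.26) and Cldn15 (-0.0333 to 0.60). Tjp1 in IL10 ranged from -0.13 to 0.0168, and without mice 3 and 4 stood at 0.10, Cldn8 at 0.13. With other controls Cldn1 (-0.67), Cldn23 (0.29) and Tjp1 (0.0809) in TCT and Cldn15 (0.15) in aCD40 reversed.

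Samples with the same replicate number did not deviate together (correlations -0.107 to 0.0738), and the mice were not treated as paired. With so few shared numbers in each comparison, this check cannot exclude pairing. With the replicate block TRUC called Cldn8 (1.27, edgeR adjusted p = 1.32e-13) and Cldn15 (-0.64, edgeR adjusted p = 0.0059), IL10 called Cldn2 (-0.71, edgeR adjusted p = 0.0249) and no longer Cldn15 (0.87, edgeR adjusted p = 0.163), and Rag2 against WT controls called 3 members, as did the same mice without the block. DSS, DNBS, TCT and aCD40 share fewer than 2 numbers with their controls. Cldn1 is limited by depth, at 5 to 18 counts per mouse in IL10.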
